A study of Mus musculus with 2 samples.

Results

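The Schlafen family was described here through 7 mouse genes, Slfn1, Slfn2, Slfn3, Slfn4, Slfn5, Slfn8 and Slfn9, taken by symbol from a table of 36808 genes. Each symbol matched 1 entry of the table. The data are RNA sequencing of primary hepatocytes, liver parenchymal cells isolated from C57Bl6 mice and kept in William E medium with serum, insulin and dexamethasone. One culture was treated with 1 µM GW3965, which activates the liver X receptors (LXR, nuclear receptors that sense oxysterols), and the other with DMSO as vehicle. Each group had 1 library. The other library of the table bears the name GL. It was taken to be GW3965, as the sole sample left once DMSO is placed, and this assignment is not certain. Without replicates, an effect of GW3965 and a chance difference between cultures cannot be told apart. The family was selected on the measured FPKM ratios of its genes between these same libraries, so their ratios are a description and support nothing.

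Schlafen genes are named after the German word for sleep, because the first of them was found to halt the growth of developing T cells. They lie side by side in a cluster, are expressed mostly in cells of the immune system, and many are induced by type I interferon. All share an N-terminal core domain. The short proteins (Slfn1 and Slfn2) consist of little else, Slfn3 and Slfn4 are intermediate, and the long ones (Slfn5, Slfn8 and Slfn9) carry a helicase-like domain at the C-terminus. Among long relatives in other species, human SLFN11 and rat Slfn13 cleave transfer RNA.

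Of the 7 genes, 4 reached an FPKM (fragments scaled to transcript length and library size) of 1 in either library, namely Slfn2, Slfn9, Slfn5 and Slfn8. Past a threshold of 1.5-fold, 1 of the 4 (Slfn9) was lower in GW3965 and 0 were higher. Across all 11796 genes at that minimum, 1.33% passed the threshold downward and 1.02% upward. The ratio was formed as log2((GW3965 FPKM + 1)/(DMSO FPKM + 1)), which understates differences of low genes. On that scale the median of the 4 genes was -0.27 and that of all genes 0.01, and without Slfn9 the remaining 3 had a median of -0.20. Over all 7 genes the median was -0.03, since the genes below the minimum lie near 0 on this scale by construction.

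**Figure D1:**
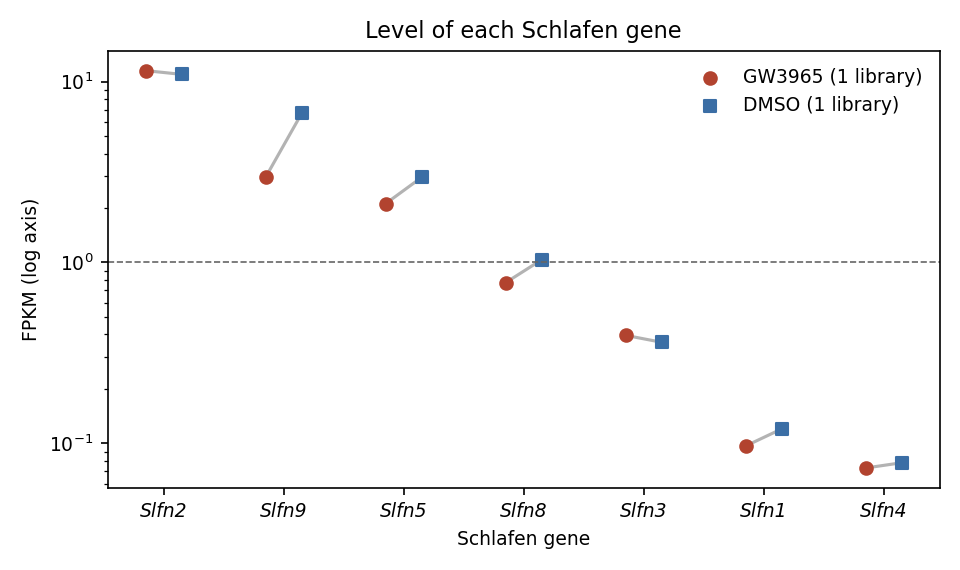
FPKM of each Schlafen gene (log axis) in the GW3965 library (circles, left of each pair) and the DMSO library (squares, right), with 1 library per group and the minimum of 1 FPKM dashed. Slfn9 shows the widest gap on this axis, at 2.96 FPKM in GW3965 and 6.67 in DMSO, and the order of the genes is the same in both libraries.

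Among the long members, Slfn9 (ENSMUSG00000069793, chromosome 11, 82793131 to 82805332, mm9, minus strand) stood at 2.96 FPKM in the GW3965 library and 6.67 FPKM in the DMSO library. The DMSO level was thus 2.25 times that in GW3965, a log2 ratio of GW3965 to DMSO of -1.17 without a pseudocount and -0.95 with it. The authors' deposited table gives Slfn9 p = 1.52e-05 and q = 0.00718, and calls it. Of the 15090 genes tested in the authors' deposited table, 18 (0.119%) are called lower in GW3965, and Slfn9 is number 12 of them by q and number 9 by ratio. A test of this kind, on a single library each, says that the libraries differ and not that the conditions do. The standard error of the log2 ratio derived from the authors' deposited table was 0.27. Among 11010 protein-coding genes at the minimum, Slfn9 had the ratio ranked 10 from the lowest. Little is known of the function of mouse Slfn9.

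Slfn5 (ENSMUSG00000054404, plus strand), whose human counterpart is an interferon-induced nuclear protein, was at 2.12 FPKM in the GW3965 library and 2.96 FPKM in the DMSO library. Its log2 ratio without a pseudocount was -0.48, with a standard error of 0.42 from the authors' statistic, and the authors' deposited table does not call it (q = 0.999957). Slfn8 (ENSMUSG00000035208, chromosome 11, 82815660 to 82834312, mm9, minus strand), a long member found in immune cells, was at 0.774 FPKM in the GW3965 library and 1.04 FPKM in the DMSO library. Its log2 ratio without a pseudocount was -0.42, with a standard error of 0.39, and the authors' deposited table does not call it either (q = 0.999957). All 3 long members thus had ratios below 0, where 47.1% of all genes at the minimum did. For Slfn5 and Slfn8 the difference was about as large as its standard error. Whether the ratio of Slfn9 differs from those of Slfn5 and Slfn8 was not tested.

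Among the short members, Slfn2 (ENSMUSG00000072620, chromosome 11, 82878614 to 82884180, mm9, plus strand), which keeps T cells and monocytes quiescent in mice, had the highest level of the family. It was at 11.5 FPKM in the GW3965 library and 11.0 FPKM in the DMSO library. Without a pseudocount its log2 ratio was 0.07, with a standard error of 0.23 from the authors' statistic. Slfn2 and Slfn9, the highest members, thus stood 3.88 times apart in GW3965 and 1.64 times apart in DMSO. Slfn1 (ENSMUSG00000078763, chromosome 11, 82930351 to 82936172, mm9, plus strand), the founding member that blocks growth of thymocytes and fibroblasts, was at 0.0969 FPKM in GW3965 and 0.120 FPKM in DMSO. Its FPKM in both libraries corresponds to about 13 reads in GW3965 and 13 in DMSO. Its log2 ratio of -0.31 without a pseudocount thus reflects equal read numbers in libraries of unequal depth.

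The intermediate members were low. Slfn3 (ENSMUSG00000018986, chromosome 11, 83004832 to 83028656, mm9, plus strand), studied for enterocyte differentiation in rat, was at 0.395 FPKM in the GW3965 library and 0.362 FPKM in the DMSO library. Without a pseudocount its log2 ratio was 0.13, with a standard error of 0.47. Slfn4 (ENSMUSG00000000204, chromosome 11, 82988688 to 83003723, mm9, plus strand), an interferon-responsive gene of macrophages and other myeloid cells, was at 0.0731 FPKM in GW3965 and 0.0782 FPKM in DMSO. Its log2 ratio, again without a pseudocount, was -0.10 with a standard error of 0.89. In both libraries the members ran in the order Slfn2, Slfn9, Slfn5, Slfn8, Slfn3, Slfn1 and Slfn4. There is no spread over samples for these levels, and Slfn1 and Slfn4, the last in the order, rest on few reads each. Of the summed FPKM of the family, 17.9 in GW3965 and 22.2 in DMSO, Slfn2 made up 64.2% in GW3965 and 49.4% in DMSO, and Slfn9 16.5% in GW3965 and 30.1% in DMSO. Without Slfn9 the sums were 15.0 in GW3965 and 15.5 in DMSO, which places most of the difference between the sums on Slfn9.

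From the spacing of low FPKM values the library sizes were estimated as about 78300000 fragments for GW3965 and 63000000 for DMSO, which sets the reads behind each level. Slfn9 then rested on about 456 reads in GW3965 and 826 in DMSO at its shortest annotated transcript of 2128 bases, and on about 1300 reads in GW3965 and 2355 in DMSO at the longest of 5769 bases. These lengths are those of GENCODE M21, in which the gene spans 13441 bases, against 12202 in the table, so the authors' transcripts may differ. The exact 95% interval of its GW3965 to DMSO ratio from counting was 0.395 to 0.499 at that shorter length and 0.415 to 0.476 with the longer one. For Slfn5 it was 0.435 to 1.18 at a transcript of 360 bases and 0.656 to 0.781 at one of 5979 bases, so that counting alone does not settle its difference. For Slfn8 the interval was 0.527 to 1.06 at 1252 bases and 0.622 to 0.896 at 4011 bases. Slfn2 has 1 annotated transcript and an interval of 0.967 to 1.14 from about 1353 reads in GW3965 and 1038 in DMSO. For Slfn1 (0.344 to 1.88), Slfn4 (0.357 to 2.93) and Slfn3 (0.696 to 1.69, both at their shortest transcripts) a difference was not detectable at this depth. These intervals cover counting error only and leave out any difference between cultures.

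**Figure D2:**
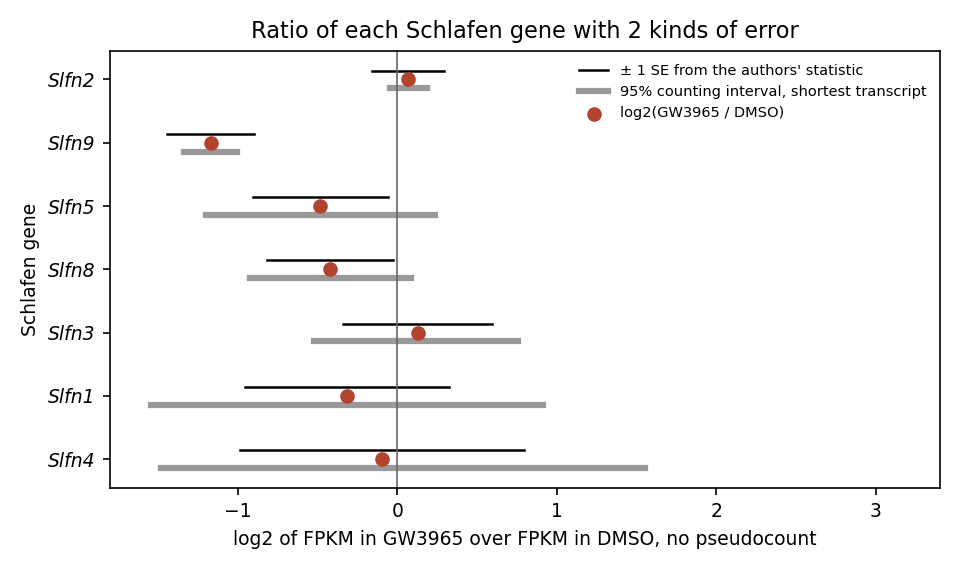
Log2 ratio of GW3965 to DMSO FPKM for each Schlafen gene, without a pseudocount. Thin black bars give 1 standard error either way from the authors' statistic, and thick grey bars the 95% counting interval at the shortest annotated transcript. At these shortest transcripts, both bars lie wholly below 0 for Slfn9 alone, at -1.17. At the longest transcripts, not drawn, the counting intervals of Slfn5 (-0.61 to -0.36) and Slfn8 (-0.68 to -0.16) lie below 0 too.

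Upstream sequences are shown for the 4 members at the minimum. They are the 250 bases before the RefSeq transcription start (GRCm38.p6), each read on the strand of its gene, with capitals marking the interferon-response motif, GAAA repeated after 2 bases of any kind, on either strand. The windows are chr11:82991831-82992080 (minus strand) for Slfn9, chr11:83020811-83021060 (minus) for Slfn8, chr11:82951852-82952101 (plus) for Slfn5 and chr11:83064862-83065111 (plus) for Slfn2. For Slfn8 RefSeq holds another start nearby, whose window contains the same motif.
Slfn9: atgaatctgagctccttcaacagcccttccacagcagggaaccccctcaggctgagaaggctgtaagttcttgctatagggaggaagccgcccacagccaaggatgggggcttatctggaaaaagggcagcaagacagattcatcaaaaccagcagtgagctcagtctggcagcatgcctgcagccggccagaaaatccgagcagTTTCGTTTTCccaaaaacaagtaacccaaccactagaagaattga
Slfn8: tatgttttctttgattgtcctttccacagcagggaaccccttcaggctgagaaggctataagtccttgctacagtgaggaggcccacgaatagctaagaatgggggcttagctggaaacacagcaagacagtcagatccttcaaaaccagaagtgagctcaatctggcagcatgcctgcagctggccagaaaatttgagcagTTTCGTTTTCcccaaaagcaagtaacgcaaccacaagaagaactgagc
Slfn5: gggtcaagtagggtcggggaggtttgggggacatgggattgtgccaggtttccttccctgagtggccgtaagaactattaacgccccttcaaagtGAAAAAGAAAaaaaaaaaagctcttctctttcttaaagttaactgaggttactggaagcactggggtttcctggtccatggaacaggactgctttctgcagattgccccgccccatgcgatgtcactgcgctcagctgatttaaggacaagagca
Slfn2: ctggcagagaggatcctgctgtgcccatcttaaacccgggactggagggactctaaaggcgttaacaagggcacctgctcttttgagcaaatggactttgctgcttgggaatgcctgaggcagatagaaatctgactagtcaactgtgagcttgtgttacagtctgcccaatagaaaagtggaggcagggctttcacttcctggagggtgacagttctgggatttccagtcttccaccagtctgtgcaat

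The motif stood 45 to 36 bases before the start of Slfn9 and 48 to 39 bases before that of Slfn8, in both cases with the letters TTTCGTTTTC on the gene's strand. In Slfn5 it lay 155 to 146 bases before the start, as GAAAAAGAAA within a run of adenines. The windows of Slfn2, Slfn1, Slfn3 and Slfn4 held 0 matches of it. All 7 members had a RefSeq window, and for comparison 978 of 32851 windows of the same length (2.98%) held the motif. Counted by gene, it was found in 3.46% of 27025 genes and in 10 of the 26 genes of the interferon-stimulated list that had a window. The STAT motif, TTC and GAA with 3 bases of any kind between them and found in 7.02% of all windows, and the LXR motif, AGGTCA repeated after 4 bases of any kind and found in 5 of 32851, had 0 matches on either strand in any window of the 7 members. A match here is a description of letters and not a measured binding site, and a missing match says only that these letters are not in this window. The ratios chose the family, so nothing is read from which windows hold a motif. With gaps counted as differences, the windows of Slfn8 and Slfn9 were identical in 80.2% of alignment columns, 24 of which held a gap. The other 27 pairs among the 7 members and Slfn14 were identical in 45.5% to 53.4% of columns, with 56 to 120 gap columns each.

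Shared sequence limits how well neighbouring members can be told apart. Of the 25-base words of Slfn9 transcripts (GENCODE M21), 17.2% also occurred in Slfn8 and 17.5% in the pseudogene Slfn10-ps, and 24.6% in any other Schlafen gene. For Slfn8, 24.9% of the words occurred in Slfn9 and 22.9% in Slfn10-ps. Slfn3 and Slfn4 formed another such pair, with 18.9% of Slfn3 words found in Slfn4 and 16.2% of Slfn4 words in Slfn3. Both also shared words with the pseudogene Gm11427, 13.1% of those of Slfn3 and 10.8% of those of Slfn4. Slfn2 shared 9.51% of its words with other family members and Slfn5 0%. Counted over any other gene, shared words were 37.8% for Slfn3, 34.4% for Slfn8, 32.5% for Slfn9 and 24.6% for Slfn4. They were 15.4% for Slfn2, 14.8% for Slfn5 and 2.61% for Slfn1. How the authors assigned reads that match several genes is unknown here. Levels of Slfn3, Slfn8, Slfn9 and Slfn4 are therefore uncertain to that extent, and those of Slfn2 and Slfn5 to a smaller one. Slfn10-ps itself was at 1.35 FPKM in the GW3965 library and 1.19 FPKM in the DMSO library, a log2 ratio with the pseudocount of 0.10, on the other side of 0 from that of Slfn9.

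**Figure D3:**
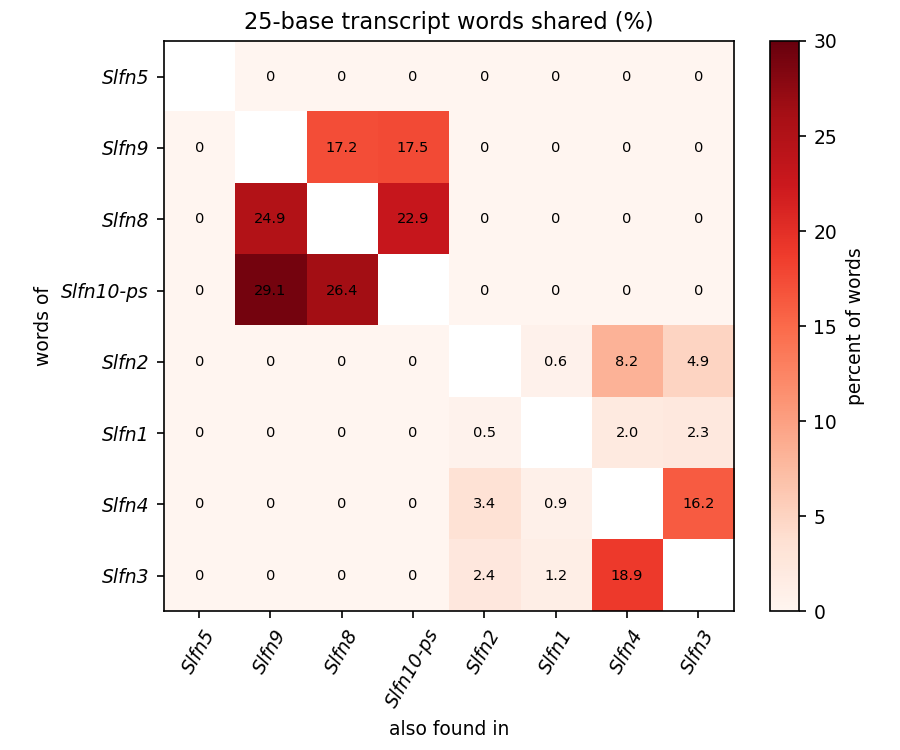
Percent of the 25-base words in the transcripts of each Schlafen gene (rows) that also occur in those of another (columns), with darker red for more. Slfn9, Slfn8 and Slfn10-ps form a block with 17.2% to 29.1%, Slfn3 and Slfn4 another with 16.2% and 18.9%, and Slfn5 shares none.

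Apart from Slfn10-ps, the other Schlafen genes of the table were at or near 0. Slfn14, listed under its older symbol Slfn14-ps with the same identifier, was listed at 0 in both libraries. Slfnl1, a more distant relative on chromosome 4, was listed at 0 FPKM in GW3965 and stood at 0.0197 FPKM in DMSO. Slfn5os, an antisense gene listed as 1700003F17Rik, was at 0.0914 FPKM in GW3965 and 0.114 FPKM in DMSO. Since strand handling is not given in the sources used here, reads of Slfn5os and Slfn5 may not be separable. Of the words of Slfn5, 8.19% occurred in Slfn5os on either strand.

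The 7 genes lay within 304.6 kb of chromosome 11 (82724052 to 83028656, mm9). Slfn5 is listed with a locus it shares with Unc45b, Gm12575 and 1700003F17Rik, so its own bounds are not given by the table. The locus of Slfn9 starts 16687 bases after that of Slfn5 ends, and 10327 bases separate it from Slfn8. Within 500 kb of the cluster the table holds 58 genes, of which 25 were at the minimum, 21 of them not members. The median log2 ratio of these 21 genes with the pseudocount was 0.01. Of them, 0 passed 1.5-fold upward and 1 downward (1.02% and 1.33% of all genes at the minimum). That 1 gene was Ccl4, a chemokine of macrophages and lymphocytes, at 1.26 FPKM in GW3965 and 2.61 FPKM in DMSO. Unc45b, a myosin chaperone whose locus overlaps that of Slfn5, was at 1.05 FPKM in GW3965 and 1.70 FPKM in DMSO, a log2 ratio of -0.40 beside -0.34 for Slfn5. On the other side, the clathrin adaptor gene Ap2b1 stood at 0.11. The other neighbours on this scale were Tmem132e at -0.09, Zfp830 at 0.01, Gm11423 at -0.21, Lig3 at 0.11, Rffl at -0.12, Rad51l3 at -0.05 and Nle1 at 0.02. Further along were Gm11425 at 0.21, AI662270 at -0.17, a U2 snRNA gene at 0.45 and Taf15 at 0.15.

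**Figure D4:**
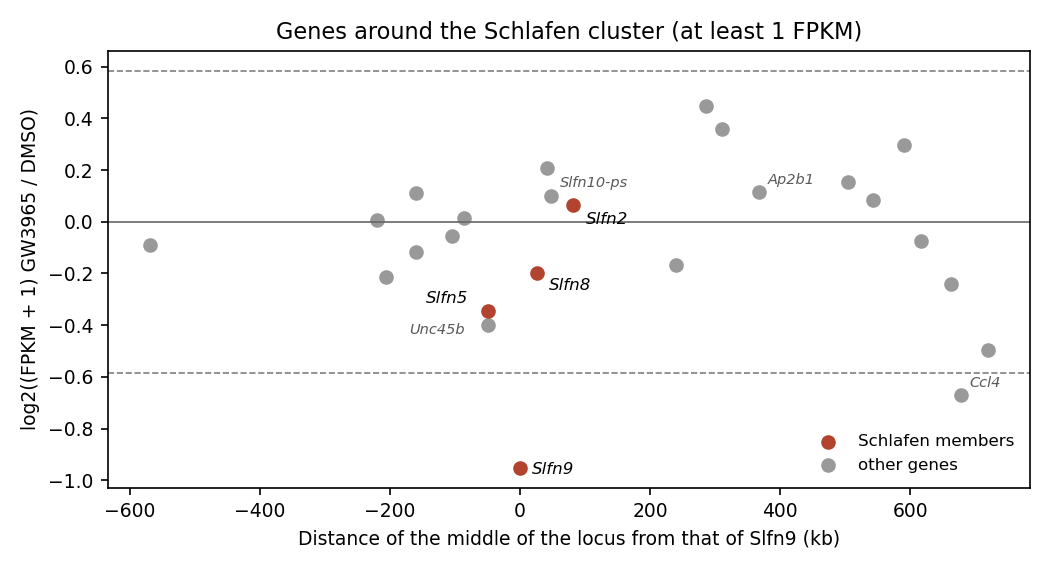
Log2 ratio with a pseudocount of 1 for each gene of at least 1 FPKM within 500 kb of the Schlafen cluster, by the distance of the middle of its locus from that of Slfn9 (red, Schlafen members, grey, other genes, dashed lines, 1.5-fold). Slfn9 at -0.95 lies below all other points, while Slfn8, the nearest member, lies at -0.20 and Slfn2 at 0.06.

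Because type I interferon induces several Schlafen genes, the steps of that pathway were listed beside them. Of 8 interferon genes in the table, 7 were listed at 0 in both libraries and Ifnb1 was listed at 0 FPKM in GW3965 and 0.0515 FPKM in DMSO. Receptor genes had a median log2 ratio with the pseudocount of 0.04 over 5 genes, with 0 past 1.5-fold. Of all genes at the minimum, 1.33% passed it downward and 1.02% upward. The type I receptor chains Ifnar1 and Ifnar2 stood at 0.16 and -0.01, the type II chains Ifngr1 and Ifngr2 at -0.32 and 0.08, and Il10rb at 0.04. The kinases Jak1, Jak2 and Tyk2 stood at 0.04, -0.003 and -0.07. Thus receptors and kinases lay near the median of all genes apart from Ifngr1.

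Of 9 transcription factors of the pathway, 0 passed 1.5-fold and the median was -0.16. Of all genes at the minimum, 1.33% passed 1.5-fold downward and 1.02% upward. Stat2 and Irf9, subunits of the interferon-induced complex, stood at -0.17 and -0.23. Irf7, which amplifies the interferon response, was at 94.9 FPKM in GW3965 and 140.6 FPKM in DMSO (-0.56). Irf1, Irf2, Irf3 and Irf5 stood at -0.16, 0.13, -0.11 and 0.01. Irf8, a factor of myeloid cells, went the other way, at 7.71 FPKM in GW3965 and 5.47 FPKM in DMSO (0.43). Among 5 genes that restrain or modify the response, 1 passed 1.5-fold downward and 0 upward, beside those same shares of all genes. That 1 gene was Isg15, a ubiquitin-like protein, at 49.8 FPKM in GW3965 and 78.8 FPKM in DMSO (-0.65). Usp18, which removes ISG15 and restrains the receptor, stood at -0.19, Socs3 at -0.07, Ptpn6 at -0.10 and Pias1 at 0.11.

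Of 31 interferon-stimulated genes at the minimum, 30 had a ratio below 0, where 47.1% of all genes did, and the median was -0.40. By size, 2 of the 31 passed 1.5-fold downward and 0 upward (1.33% and 1.02% of all genes at the minimum). Of the 15090 genes tested in the authors' deposited table, 43 are called, and of these 31 genes 0 are. Ifit3, an antiviral RNA-response gene, was lowest at 4.36 FPKM in GW3965 and 7.92 FPKM in DMSO (-0.74), followed by Ifi44 at -0.63, Ifit1 at -0.58 and Xaf1 at -0.57. The exception was Oasl1, at 36.5 FPKM in GW3965 and 29.7 FPKM in DMSO (0.29). Slfn9 at -0.95 lay below the lowest of these genes, Slfn5 at -0.34 and Slfn8 at -0.20 lay within their range, and Slfn2 at 0.06 lay above 30 of the 31. These ratios come from the same pair of libraries and were not tested against each other.

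**Figure D5:**
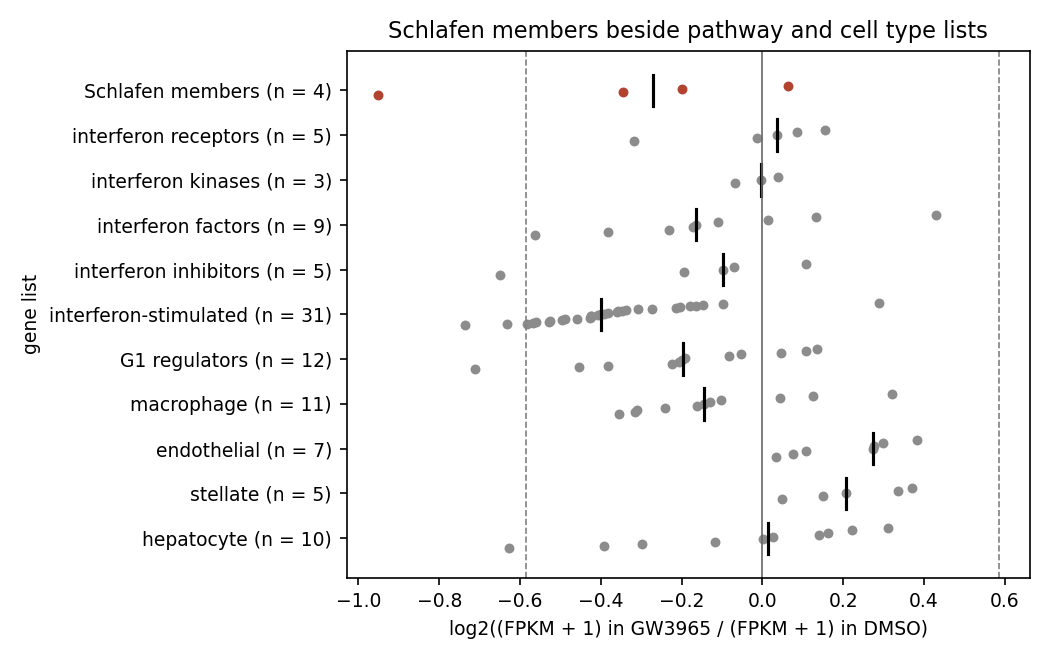
Log2 ratio with a pseudocount of 1 of each gene of at least 1 FPKM in the Schlafen family (red) and in lists of the interferon pathway, G1 regulators and cell type markers (grey), with black bars at the medians and dashed lines at 1.5-fold. The interferon-stimulated genes centre on -0.40, and Slfn9 lies left of every other gene plotted.

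Markers of other cells were measured beside these genes, because Schlafen genes are abundant in immune cells. The 10 hepatocyte markers had a summed level of 4302 FPKM in GW3965 and 5173 FPKM in DMSO, with a median ratio of 0.01. Their levels were uneven. Highest of the 10 was Fgb, at 1999.5 FPKM in GW3965 and 2458 FPKM in DMSO. Lowest was Cps1, at 2.10 FPKM in GW3965 and 1.497 FPKM in DMSO. Of these 10, 1 passed 1.5-fold downward and 0 upward (1.33% and 1.02% of all genes at the minimum). That 1 gene was Ahsg, which encodes fetuin-A, at 831 FPKM in GW3965 and 1284 FPKM in DMSO (-0.63). Of 14 macrophage markers in the table, 11 were at the minimum, with a median of -0.14. Past 1.5-fold were 0 of the 11 in either direction, beside the same 1.33% and 1.02% of all genes. Of the 11, 8 had a ratio below 0, where 47.1% of all genes at the minimum did. The complement genes C1qa and C1qc stood at -0.35 and -0.32, the lysozyme gene Lyz2 at -0.31 and Mpeg1, which encodes perforin-2, at -0.24, while the lysosomal glycoprotein gene Cd68 stood at 0.32. The summed level of all 14 was 270.1 FPKM in GW3965 and 277.7 FPKM in DMSO, and without Cd68, a marker singled out after its values were seen, 176.2 FPKM in GW3965 and 202.8 FPKM in DMSO. Csf1r, which defines macrophages, was at 2.70 FPKM in GW3965 and 2.97 FPKM in DMSO, and Clec4f, which marks Kupffer cells, at 3.11 FPKM in GW3965 and 2.99 FPKM in DMSO. Of 11 lymphocyte markers 1 was at the minimum, Lck at 0.963 FPKM in GW3965 and 1.25 FPKM in DMSO, while Cd3e was at 0.0298 FPKM in GW3965 and 0.0124 FPKM in DMSO. Their summed level was 1.60 FPKM in GW3965 and 1.86 FPKM in DMSO. Granulocyte markers summed to 0.341 FPKM in GW3965 and 0.248 FPKM in DMSO over 9 genes, 2 of them (Elane and Ly6g) at 0 in both. Endothelial markers had a median of 0.27 over 7 genes and sums of 238.6 FPKM in GW3965 and 211.4 FPKM in DMSO. Stellate markers had a median of 0.21 over 5 genes, and the cholangiocyte markers Krt19 and Sox9 stood at 0.27 and 0.07. Of these 7 endothelial, 5 stellate and 2 cholangiocyte markers, 0 had a ratio below 0, where 47.1% of all genes at the minimum did. The part of these cell types in the Schlafen levels was not tested. Fewer cells of a type and less RNA per cell cannot be told apart in these libraries.

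Since Slfn1 and Slfn2 are known for holding cells in quiescence, regulators of the G1 phase were listed too. Of 12 such genes, 1 passed 1.5-fold downward and 0 upward (1.33% and 1.02% of all genes at the minimum), with a median of -0.20. That 1 gene was Ccne2, which encodes cyclin E2, at 1.52 FPKM in GW3965 and 3.14 FPKM in DMSO (-0.71).

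Targets of LXR itself were also counted. Of 10 genes of the LXR list at the minimum, 7 passed 1.5-fold upward in GW3965 and 0 downward. Their median was 1.28, and of all genes at the minimum 1.02% passed upward. Nr1h2 and Nr1h3, which encode the receptors and are among the 10, stood at 0.04 and -0.29.

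Genes with the most similar levels in both libraries were sought among 11795 genes by distance in log2(FPKM + 1). With only 2 libraries this likeness rests on 2 values per gene. For Slfn9 the nearest were Top2a, a topoisomerase of dividing cells, at 2.87 FPKM in GW3965 and 5.82 FPKM in DMSO, Snora21, a small nucleolar RNA, at 3.41 FPKM in GW3965 and 6.09 FPKM in DMSO, and Tcf19 at 3.43 FPKM in GW3965 and 6.05 FPKM in DMSO. The authors' deposited table calls 43 of the 15090 genes tested and 0 of these 3. Their distances were 0.17, 0.19 and 0.20 log2 units. For Slfn2 the nearest were Srrd, Sphk2 and Tacc2, at distances of 0.011, 0.013 and 0.014 log2 units.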

How the data were processed

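Total RNA of 2 hepatocyte cultures, 1 library each, was sequenced from TruSeq libraries, per the labels' protocols. The submitters' processing notes name Cuffdiff, Cufflinks 2.0.2, TopHat2 2.0.6 and CASAVA, with the builds NCBIM37 and mm9. How strand, multiply matching reads and library size were handled is not given in the sources used here. Deposited values are FPKM, per the file headers, with the authors' p-value and q-value. The file headers also name a test statistic, a deposited score with its sign opposite to that of the fold in all 43 calls. The highest q among calls in the authors' deposited table was 0.0470.

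From these were computed log2 ratios with a pseudocount of 1, and counts past 1.5-fold among genes of at least 1 FPKM in either library. Standard errors are the log2 ratio without a pseudocount over the score, taken without sign. Ratios given with a standard error have no pseudocount. Marked for too many fragments, 7 genes were left out. Table starts, counted from 0 (the reading with which 58.5% of 19846 loci of 1 gene have the GENCODE length, against 1.53%), had 1 added.

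Depth came from 3769 low genes, in which the commonest DMSO to GW3965 FPKM ratio, 1.24, was taken as 1 read against 1 read, and from 4085 genes with 1 GENCODE M21 transcript, with 160 bases taken off each length. GENCODE and the RefSeq promoters are on GRCm38 and gave lengths, words and sequences, never positions in mm9. The members and the 16 lists were chosen with earlier results of these data known. The text names every member, the pathway genes at the minimum, up to 4 genes of other lists, neighbours at the minimum and the nearest genes, apart from a few genes not reported here. Markers that define a cell type, Mpeg1, Cdkn1a and Oasl1 were named beyond this, after their values were seen. The ratio rule and the counting interval were tested on simulated data, with planted changes larger than the threshold in genes above the minimum and with depth known. Such a check does not cover genes near the minimum, or the estimated depths and transcript lengths used here. Alternatives were other pseudocounts, minima, thresholds and scalings and the genes the authors tested. Computations ran in Python 3.11.15 (pandas 2.3.3, numpy 2.4.6, scipy 1.17.1), and figures were drawn with matplotlib 3.10.9.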

Additional observations from a re-analysis of the deposited data

How the results depend on the processing

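Over the pseudocounts and scalings tried, Slfn9 had log2 ratios of -1.14 at a pseudocount of 0.1 and -0.55 at 5. Centred on the median of all genes it stood at -0.96, and with libraries scaled to the same sum at -0.95. A pseudocount cannot change the sign of a ratio and the scalings were small, so nothing is read from its direction here. At a pseudocount of 5, and at a 2-fold threshold, 0 members were past the threshold downward. Slfn5 ranged between -0.46 and -0.16 over these settings and Slfn8 between -0.38 and -0.06. The median of the members at the minimum ranged from -0.44 at a minimum FPKM of 5, which leaves Slfn2 and Slfn9, to -0.03 without a minimum. Interferon-stimulated genes had a median of -0.31 at a pseudocount of 5, and 6 of them were at least 1.5-fold lower at 0.1, 0 at 5 and 0 at 2-fold. Over all genes, counts higher and lower were 194 and 320 at a pseudocount of 0.1, 56 and 56 at 5, and 39 and 55 at 2-fold, and 82 were lower at a minimum FPKM of 5. Pseudocounts act by construction on low genes. Of 293 further values for lists, 16 moved. A median moved if it left an interval set by the ranked ratios of its list. A count moved if it changed by more than 1.5-fold, or to or from 0. The other Schlafen genes and the lymphocyte markers had 1 gene at the minimum, so their interval has no width and any change of the median is included. No paired analysis was possible because there is 1 library per group. Depth limits Slfn1, Slfn3 and Slfn4, all below 1 FPKM.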

Other observations

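Slfn1 arrests growth in part through loss of cyclin D1, as known from mouse fibroblasts, and regulators of the G1 phase were listed for that reason. Of 12 such genes, all at the minimum, 9 had a ratio below 0, 1 passed 1.5-fold downward and 0 upward, with a median of -0.20. Of all genes at the minimum, 47.1% had a ratio below 0, 1.33% passed 1.5-fold downward and 1.02% upward. Ccne2, a cyclin of the G1 to S transition, was at 1.52 FPKM in GW3965 and 3.14 FPKM in DMSO (-0.71). Ccnd1 itself, cyclin D1, was at 23.1 FPKM in GW3965 and 32.0 FPKM in DMSO (-0.45), E2f1, a factor of S phase entry, stood at -0.38 and Ccne1 at -0.22. Cdkn1a, an inhibitor of cyclin-dependent kinases, stood at 0.11. The authors' deposited table calls 43 of the 15090 genes tested and 0 of these 12. With 2 libraries there is no test of whether the G1 genes vary with the Schlafen genes.

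At the far end of the window around the Schlafen cluster lie chemokine genes. Ccl9 stood at 0.30, Ccl5 at 0.08, Ccl6 at -0.07 and Ccl3 at -0.24, beside Ccl4 at -0.67. The neighbouring entry Gm11428 was at 6.49 FPKM in GW3965 and 9.57 FPKM in DMSO (-0.50).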
